A study of Homo sapiens with 6 samples.

Results

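Cells make cholesterol and fatty acids from acetyl-CoA, and the genes for both routes share a family of transcription factors, the sterol regulatory element-binding proteins (SREBPs). SREBPs are held in the endoplasmic reticulum by SCAP and the INSIG proteins while sterol is plentiful, and are carried to the Golgi, cut and sent to the nucleus when sterol is short. Melanoma cells depend on this supply for membranes, and changes in the balance of saturated and unsaturated fatty acids have been linked to switches between melanoma cell states. The genes described here are 37 genes of this system, chosen by symbol from a list of SREBP regulators and targets of cholesterol and fatty acid synthesis and uptake, out of 24526 genes in the deposited table. All 37 were in the table, and 36 had enough counts to be tested. They fall into 6 roles, the SREBP system itself, the route from acetyl-CoA to squalene, the route from squalene to cholesterol, fatty acid synthesis, desaturation and elongation, and sterol transport and export.

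The study asked how WM266.4 cells, a human melanoma cell line with high RIPK4, respond to loss of RIPK4, a receptor-interacting serine/threonine kinase best known from keratinocyte differentiation. One group of 3 cultures received an siRNA against RIPK4 (RIPK4.si) and the other group of 3 received a negative control siRNA (neg.si), with no further treatment given in the sources used here for the sequenced cultures. Poly(A) RNA was sequenced 48 h after transfection. The study's methods call the cultures of a group biological replicates. All 6 libraries came from the same line. The study's methods give serum-containing medium, which supplies lipoprotein cholesterol and fatty acids, for culture of the line. The sources used here do not give the medium of the sequenced cultures from transfection to RNA isolation. The knockdown was transient, rested on 1 siRNA and was measured at 1 time. An effect of the siRNA other than on RIPK4 thus cannot be told apart from loss of RIPK4.

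The libraries held 28464057 to 31688095 counted read pairs. RIPK4 stood at 85.8, 76.5 and 54.7 CPM in the neg.si libraries and 19.9, 16.7 and 21.5 CPM in the RIPK4.si libraries, where CPM is the usual depth-scaled count, here after TMM scaling. RIPK4 fell by 1.90 on the log2 scale (SE 0.20, edgeR quasi-likelihood test, Benjamini-Hochberg adjusted p = 0.0102, range over the alternatives 1.25e-13 to 0.106), with no overlap between the groups. Its adjusted p was 0.0622 to 0.106 without neg.si 2 or without any 1 of the RIPK4.si libraries. All 7 melanocyte lineage markers were at 1 CPM or more in every library, and their summed level was 2348 to 2567 CPM in neg.si and 1749 to 1822 CPM in RIPK4.si. Their fitted log2 fold changes had both signs. PMEL (-1.30, adjusted p = 0.0111 by edgeR) was called, DCT (-0.73) had an adjusted p of 0.0854 by edgeR, 0.00361 by DESeq2 and 0.0198 with the GC trend removed, and neither overlapped between the groups. PMEL was no longer called by edgeR without neg.si 2 or without any 1 of the RIPK4.si libraries (adjusted p 0.0738 to 0.129). S100B (-0.48), SOX10 (-0.15), MITF (0.042), MLANA (0.062) and TYRP1 (0.36) overlapped between the groups. The summed markers of keratinocytes reached 10.2 to 11.6 CPM and 11.8 to 16.1 CPM, with KRT10 the only 1 of them at 1 CPM or more in every library, and those of epithelial cells, leukocytes, endothelium, adipocytes and hepatocytes stayed at or under 3.24 CPM in every library. The part of these marker differences in the values below was not tested, and in bulk RNA fewer cells of a kind and less RNA per cell cannot be told apart. The library neg.si 3 stood farthest from the others on the first principal component, and the libraries differed in how their counts followed the GC content of genes, with rank correlations over all genes from -0.554 in neg.si 3 to 0.562 in neg.si 1, so values are also given after removal of that trend where it matters.

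RefSeq promoters on GRCh38.p14, 250 bases before to 50 bases after the annotated start, were matched for 32 of the 37 genes (43 promoters in all, since some genes have more than 1 start). ACAT2, FDFT1, SQLE, FASN and ABCG1 had no matched promoter and were not searched. Both strands were searched for 3 motifs, TCACNCCAC as the classical sterol regulatory element, CCAAT as bound by NF-Y and GGGCGG as bound by Sp1, the latter pair being factors that work beside SREBPs. The promoters of 4 members are shown: SREBF2, whose product drives the sterol genes and whose promoter held the only match to the sterol element among the 32 genes searched, INSIG1 and NPC1, the members with the smallest p in the comparison below, and NSDHL, a sterol enzyme with 5 CCAAT matches. Capitals mark bases of a match on either strand, so that CCGCCC and ATTGG are GGGCGG and CCAAT read on the other strand, and each promoter is written 5′ to 3′ along its gene. The windows were SREBF2 chr22:41832855-41833154 on the plus strand, INSIG1 chr7:155297628-155297927 on the plus strand, NPC1 chr18:23586457-23586756 on the minus strand and NSDHL chrX:152830813-152831112 on the plus strand.
SREBF2: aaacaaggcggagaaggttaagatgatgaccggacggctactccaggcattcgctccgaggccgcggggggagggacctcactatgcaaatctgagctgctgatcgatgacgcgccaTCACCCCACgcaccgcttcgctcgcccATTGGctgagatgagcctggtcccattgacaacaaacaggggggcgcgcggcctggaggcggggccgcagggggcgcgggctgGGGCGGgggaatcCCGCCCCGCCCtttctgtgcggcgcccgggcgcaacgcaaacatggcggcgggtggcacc
INSIG1: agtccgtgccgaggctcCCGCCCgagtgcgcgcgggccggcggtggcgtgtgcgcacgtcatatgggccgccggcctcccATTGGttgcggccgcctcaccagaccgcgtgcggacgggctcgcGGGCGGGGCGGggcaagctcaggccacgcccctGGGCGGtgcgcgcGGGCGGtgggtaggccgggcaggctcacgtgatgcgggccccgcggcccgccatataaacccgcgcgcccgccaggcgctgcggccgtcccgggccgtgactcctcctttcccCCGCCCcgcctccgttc
NPC1: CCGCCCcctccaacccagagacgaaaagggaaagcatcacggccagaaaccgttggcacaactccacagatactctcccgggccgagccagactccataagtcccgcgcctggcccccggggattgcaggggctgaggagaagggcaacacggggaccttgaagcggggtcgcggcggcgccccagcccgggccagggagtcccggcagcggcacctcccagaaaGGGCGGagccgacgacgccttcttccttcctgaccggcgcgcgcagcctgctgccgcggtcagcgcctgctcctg
NSDHL: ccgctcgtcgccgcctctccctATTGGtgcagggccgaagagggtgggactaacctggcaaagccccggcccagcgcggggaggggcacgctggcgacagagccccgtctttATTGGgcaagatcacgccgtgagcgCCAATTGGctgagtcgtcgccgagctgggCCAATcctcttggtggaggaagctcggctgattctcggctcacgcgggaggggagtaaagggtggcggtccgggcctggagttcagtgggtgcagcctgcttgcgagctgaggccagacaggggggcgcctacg

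TCACNCCAC was in 1 of the 43 member promoters and in 1.13% of all 35116 promoters of this length, as the TCACCCCAC of SREBF2, 133 bases before its start. CCAAT was in 26 member promoters (60.5%) of 22 genes against 34.6% of all promoters. GGGCGG was in 38 member promoters (88.4%) of 30 genes against 45.0% of all promoters. INSIG1 held 1 CCAAT and 6 GGGCGG matches, NPC1 held 2 GGGCGG matches and no CCAAT, and NSDHL held 5 CCAAT matches, 2 of which overlap in the palindromic run CCAATTGG, and no GGGCGG. These are matches of letters and describe the windows only. The members differ in GC content in these windows and in their transcripts, and GC-rich motifs were not weighed against base composition.

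Without regard to the siRNA, the median level of the tested members in WM266.4 cells was above that of all genes tested, with a wide range between members. On a scale per exon length (RPKM, TMM-scaled counts per kilobase of annotated exons, scaled to the library as CPM is), the 36 tested members had a median level of 9.21 RPKM in neg.si, against 2.89 RPKM over all 16297 genes tested. In neg.si, 35 members had a level of 1 RPKM or more and 16 had 10 RPKM or more. SCD, the stearoyl-CoA desaturase that makes monounsaturated fatty acids, had the highest level of the list, at 98.4 ± 7.75 RPKM (SD, n = 3) in neg.si and 122 ± 4.45 RPKM (SD, n = 3) in RIPK4.si. FDFT1, which makes squalene, followed at 61.6 ± 8.72 RPKM (SD, n = 3) in neg.si and ACLY, which splits citrate into cytosolic acetyl-CoA, at 57.4 ± 5.13 RPKM (SD, n = 3), and these neighbours in the order overlapped within their spread. The lowest tested member was TM7SF2, one of the sterol C14 reductases, at 0.739 ± 0.179 RPKM (SD, n = 3). ABCG1, a sterol exporter, was the member that could not be tested, with raw counts of 2, 1 and 0 in the neg.si libraries and 3, 3 and 0 in the RIPK4.si libraries. The related exporter ABCA1 was at 3.67 ± 0.477 RPKM (SD, n = 3) in the same cells.

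**Figure D1:**
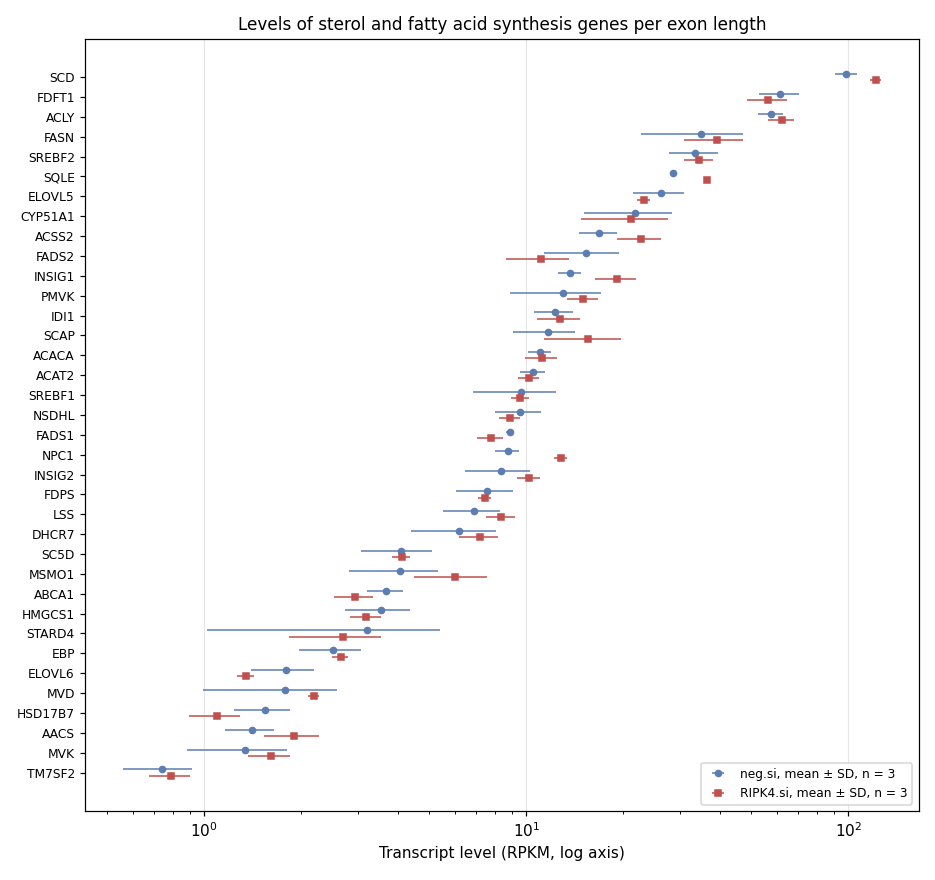
Level of each of the 36 tested genes in RPKM on a log axis, ordered by the neg.si mean; blue circles are the neg.si mean and red squares the RIPK4.si mean, and lines are ± SD over 3 libraries. Levels run from 0.739 RPKM for TM7SF2 to 98.4 RPKM for SCD in neg.si, and SCD holds the top place and TM7SF2 the bottom place in both groups.

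Silencing of RIPK4 was followed by no difference in these genes that edgeR called. By edgeR's quasi-likelihood test over all genes, 0 of the 36 tested members had a Benjamini-Hochberg adjusted p under 0.05, beside 0.767% of all genes, and the smallest adjusted p among them was 0.140, of NPC1. At an unadjusted p under 0.05 there were 4 members, NPC1, INSIG1, SQLE and ACSS2, all higher in RIPK4.si, beside 4.85% of all genes with such a p that were higher, and 0 members beside the 6.0% of all genes that were lower. The count of members in both directions was 12 without neg.si 1, 2 without neg.si 2 or RIPK4.si 3, and 5 or 6 without any 1 of the others. The shares of all genes in those fits are not given here. The list of members was chosen with earlier results of these data known. DESeq2 called 1 member, NPC1, beside 2.78% of all genes. With the GC trend of each library removed, edgeR again called 1 member, NPC1, beside 3.28% of all genes. The fitted value was higher in RIPK4.si for 22 members (61.1%) and lower for 14, beside 46.6% of all genes tested that were fitted higher. The median log2 fold change was 0.062 for the members and -0.023 for all genes tested. Leaving out 1 library changed the sign for 14 of the members, so the counts of each direction, here and by role below, are not firm. The members' median was 0.17 without neg.si 1, 0.12 without neg.si 2 and 0.038 without neg.si 3, and 0.049 to 0.089 when 1 RIPK4.si library was left out.

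The fitted fold ran from 0.710 for HSD17B7 to 1.48 for MSMO1, so that 0 members were past 1.5-fold in either direction, where 1855 of all genes tested were (11.4%). The median absolute log2 fold change was 0.21 for the members and 0.19 for all genes tested. The members' median SE was 0.19, against 0.23 for all genes tested, and their median level in neg.si was 9.21 RPKM against 2.89 RPKM. How far level and precision account for the shares past 1.5-fold and within 2-fold was not tested. MSMO1 was past 1.5-fold with the GC trend removed (log2 fold change 0.62), both MSMO1 and NPC1 with the GC trend removed and the replicate block, and 0 to 3 members when 1 library was left out (0 without RIPK4.si 3, 1 without neg.si 2, 2 without neg.si 1 or neg.si 3, and 3 without RIPK4.si 1 or RIPK4.si 2). The 95% interval of the log2 fold change lay within 2-fold in both directions for 33 of the 36 members (91.7%), beside 11501 of all genes tested (70.6%), and within 1.5-fold for 13 members. The members with an interval past 2-fold were MSMO1 (-0.043 to 1.18), HSD17B7 (-1.003 to 0.014) and STARD4 (-1.23 to 0.73). For the greater number of members the interval was thus inside 2-fold but reached past 1.5-fold.

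**Figure D2:**
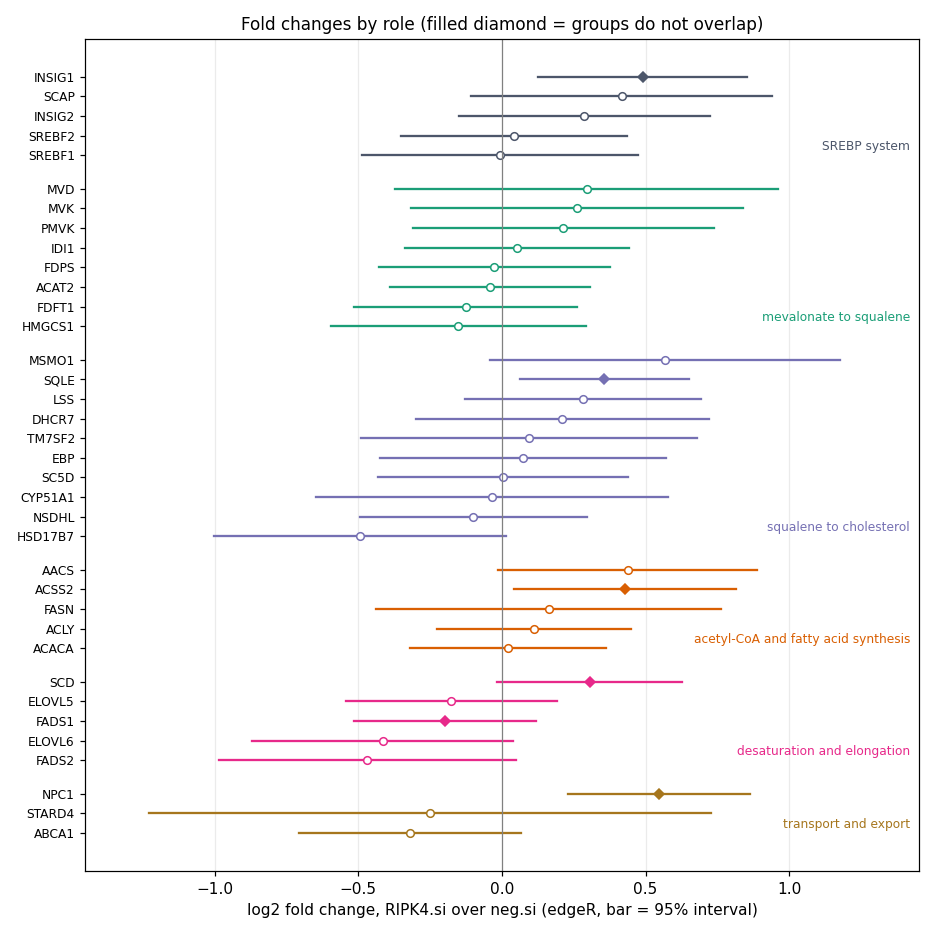
Fitted log2 fold change of RIPK4.si over neg.si for the 36 tested genes, grouped by role, with the 95% interval of edgeR's quasi-likelihood fit over 3 libraries a group. Points lie between -0.49 for HSD17B7 and 0.57 for MSMO1, the intervals of NPC1, INSIG1, SQLE and ACSS2 are those that exclude 0, and 0 points have an adjusted p under 0.05.

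The groups did not overlap for 6 members. The libraries of RIPK4.si were all higher than those of neg.si for 5 of them (NPC1, INSIG1, SQLE, ACSS2 and SCD), beside 8.23% of all genes, and all lower for 1 (FADS1), beside 9.40% of all genes. The exact two-sided permutation test cannot give a p below 0.1 with 3 libraries against 3. These genes are given below with their roles, by the values in each library.

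NPC1, the membrane protein that carries cholesterol out of late endosomes and lysosomes, had the smallest p of the list. It was at 81.1, 93.5 and 80.0 CPM in the neg.si libraries and 128, 117 and 126 CPM in the RIPK4.si libraries. Each RIPK4.si library was above every neg.si library, and both groups were narrow, with means of 84.9 ± 7.46 CPM with neg.si and 124 ± 6.0 CPM with RIPK4.si (SD, n = 3 each). This was a log2 fold change of 0.55 (SE 0.14, 95% interval 0.23 to 0.86), with an unadjusted p of 0.00346 and an adjusted p of 0.140 by edgeR. The adjusted p was 0.0374 by DESeq2, 0.0321 by edgeR with the GC trend removed and 0.0477 with the GC trend removed and the replicate number as a block, and ran from 0.0321 to 0.592 over all alternatives. The log2 fold change stayed between 0.51 and 0.64 when each library was left out in turn. NPC1 (ENSG00000141458.13) lies at chr18:23506184-23586506 on the minus strand of GRCh38. Exons of RMC1 on the other strand cover 6.38% of its exon bases, and the counts did not use strand, and RMC1 itself had a mean of 22.2 CPM (SD 0.785, n = 3) in neg.si and of 19.3 CPM (SD 2.16, n = 3) in RIPK4.si.

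In the SREBP system, 4 of 5 members had a higher fitted value and 1 a lower, with a median log2 fold change of 0.29, and 0 were called. As log2 CPM minus the gene's mean over the 6 libraries, the median of these genes was -0.33 in neg.si 3 and 0.26 in RIPK4.si 2. It was -0.085 to 0.16 in the other libraries. INSIG1, the endoplasmic reticulum anchor that is itself an SREBP target and so a common readout of SREBP activity, was at 45.3, 53.6 and 50.5 CPM in the neg.si libraries and 58.8, 78.8 and 72.3 CPM in the RIPK4.si libraries. The lowest RIPK4.si library was above the highest neg.si library by a few CPM. The log2 fold change was 0.49 (SE 0.16, 95% interval 0.13 to 0.85), with an unadjusted p of 0.0138 and an adjusted p of 0.270 by edgeR (0.0902 to 0.782 over the alternatives). INSIG1 (ENSG00000186480.13) lies at chr7:155297776-155310235 on the plus strand. SCAP, the escort and sterol sensor of the SREBPs, had a log2 fold change of 0.42 (SE 0.23, 95% interval -0.11 to 0.94). Its libraries overlapped, and RIPK4.si 2 alone held the highest value, at 126 CPM against 73.9 and 93.4 CPM in the other RIPK4.si libraries. The log2 fold change of SCAP was 0.20 without RIPK4.si 2, 0.26 without neg.si 3 and 0.46 to 0.59 without any 1 of the others. INSIG2, the anchor that SREBPs do not induce, had a log2 fold change of 0.29 (SE 0.19, 95% interval -0.15 to 0.72). The precursors themselves showed fitted values near 0. SREBF2, which encodes SREBP2 and favours sterol genes, was at 299.9, 295 and 216 CPM in the neg.si libraries and 248, 306 and 279 CPM in the RIPK4.si libraries. It had a log2 fold change of 0.041 (SE 0.17, 95% interval -0.35 to 0.43), and SREBF1, which encodes the SREBP1 forms and favours fatty acid genes, had a log2 fold change of -0.0080 (SE 0.21, 95% interval -0.49 to 0.47). SREBF1 ranged from 54.3 to 99.4 CPM, with both ends in the neg.si group (99.4, 83.8 and 54.3 CPM).

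In the mevalonate arm, from acetyl-CoA to squalene, 4 of 8 members were fitted higher and 4 lower, 0 were called, and the median log2 fold change was 0.013. HMGCS1, the HMG-CoA synthase at the head of the arm and a strong SREBP2 target, was at 19.3, 21.5 and 29.5 CPM in the neg.si libraries and 23.5, 18.7 and 21.1 CPM in the RIPK4.si libraries. The groups overlapped, and the neg.si libraries spread more than those of RIPK4.si. The log2 fold change was -0.15 (SE 0.20, 95% interval -0.60 to 0.29, unadjusted p = 0.458 by edgeR). An antisense gene covers 37.7% of the exon bases of HMGCS1, so its reads may not all be its own. The kinases and decarboxylase that turn mevalonate into isopentenyl diphosphate were all fitted higher, MVK at 0.26, PMVK at 0.21 and MVD at 0.29 on the log2 scale, each with an interval that spans 0. Without neg.si 3 these log2 fold changes were 0.038, 0.038 and 0.021 and without neg.si 1 they were 0.55, 0.50 and 0.70. These 3 genes have GC contents of 56.1%, 59.0% and 63.0%, and in each of them the spread within neg.si was the larger, with MVD at 12.4, 8.02 and 4.88 CPM in neg.si and 9.88, 10.6 and 10.5 CPM in RIPK4.si. IDI1 (isomerase, 0.051), FDPS (farnesyl diphosphate synthase, -0.026), ACAT2 (acetoacetyl-CoA thiolase, -0.041) and FDFT1 (squalene synthase, -0.13) had log2 fold changes within 0.13 of 0. Exons on the other strand cover 18.6% of FDPS, 14.97% of IDI1 and 22.2% of ACAT2, and these 3 genes and HMGCS1 are the members with 10% or more of their exon bases so covered. Opposite ACAT2, itself at a mean of 27.7 CPM (SD 2.52) in neg.si, lie SOD2 at 156 CPM (SD 29.4) and TCP1 at 217 CPM (SD 11.7). Opposite FDPS and IDI1 lie RUSC1-AS1 at 1.11 CPM (SD 0.77) and IDI2-AS1 at 2.20 CPM (SD 0.41) in neg.si.

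In the steps from squalene to cholesterol, 7 of 10 members were fitted higher and 3 lower, 0 were called, and the median log2 fold change was 0.084. SQLE, the squalene epoxidase that is a rate-limiting step after the mevalonate arm, was the most even gene of the list. It was at 124, 125 and 119.6 CPM in the neg.si libraries and 157, 158 and 157 CPM in the RIPK4.si libraries. The libraries within a group differed by no more than 1.04-fold, and every RIPK4.si library was above every neg.si library, with a log2 fold change of 0.36 (SE 0.13, 95% interval 0.063 to 0.65). The unadjusted p was 0.0225 and the adjusted p 0.336 by edgeR (0.190 to 0.845 over the alternatives). SQLE (ENSG00000104549.12) lies at chr8:124998497-125022283 on the plus strand.

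MSMO1 and HSD17B7, which both act in removing the C4 methyl groups of the sterol ring, held the opposite ends of the list. MSMO1, the C4 methyl monooxygenase, was at 8.10, 11.4 and 15.2 CPM in the neg.si libraries and 18.5, 12.3 and 20.7 CPM in the RIPK4.si libraries. RIPK4.si 2 lay among the neg.si values and the other RIPK4.si libraries were above them, giving a log2 fold change of 0.57 (SE 0.27, 95% interval -0.043 to 1.18) and an unadjusted p of 0.0648 by edgeR. HSD17B7, the 3-keto reductase of the same complex, was at 5.81, 7.66 and 8.66 CPM in the neg.si libraries and 6.20, 4.29 and 5.21 CPM in the RIPK4.si libraries. The groups overlapped, with a log2 fold change of -0.49 (SE 0.23, 95% interval -1.003 to 0.014) and an unadjusted p of 0.0556 by edgeR. HSD17B7P2, a transcribed pseudogene of HSD17B7, took 392 counts over the 6 libraries against 1153 for HSD17B7 (34.0%), so the split of reads between the pair is uncertain. NSDHL, the dehydrogenase that acts between them, had a log2 fold change of -0.10. LSS, the cyclase that forms lanosterol, had a log2 fold change of 0.28 (SE 0.18, 95% interval -0.13 to 0.69), and DHCR7, the last reductase of the route, a log2 fold change of 0.21 (SE 0.23, 95% interval -0.30 to 0.72). CYP51A1 (lanosterol demethylase, -0.035), TM7SF2 (sterol reductase, 0.094), EBP (sterol isomerase, 0.074) and SC5D (sterol desaturase, 0.0035) had fitted values near 0 on the log2 scale. CYP51A1 ran from 58.5 to 121 CPM over the 6 libraries, with wide spread in both groups. Exons on the other strand, among them those of AKAP9, cover 5.90% of its exon bases. AKAP9 had means of 102 CPM (SD 20.5) in neg.si and 66.9 CPM (SD 1.47) in RIPK4.si. Its log2 fold change was -0.61, with an unadjusted p of 0.00539 and an adjusted p of 0.176 by edgeR.

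All 5 members of acetyl-CoA supply and fatty acid synthesis had a fitted value above 0, with a median log2 fold change of 0.16, and 0 were called. As log2 CPM minus the gene's mean over the 6 libraries, the median of these genes was -0.43 in neg.si 3 and 0.40 in RIPK4.si 2. It was -0.016 to 0.096 in the other libraries. ACACA and FASN changed sign when 1 library was left out. ACSS2, which makes acetyl-CoA from acetate, was at 98.2, 91.9 and 75.2 CPM in the neg.si libraries and 109, 141 and 107 CPM in the RIPK4.si libraries. The groups did not overlap, with neg.si 3 low in its group and RIPK4.si 2 high in its own, and the log2 fold change was 0.43 (SE 0.17, 95% interval 0.041 to 0.82), with an unadjusted p of 0.0336 and an adjusted p of 0.390 by edgeR (0.139 to 0.791 over the alternatives). ACSS2 (ENSG00000131069.20) lies at chr20:34872146-34927962 on the plus strand. AACS, which activates acetoacetate for lipid synthesis, had a log2 fold change of 0.44 (SE 0.20, 95% interval -0.013 to 0.89) and an unadjusted p of 0.0555 by edgeR. FASN, the fatty acid synthase, was at 429, 342 and 205 CPM in the neg.si libraries and 288, 441 and 364 CPM in the RIPK4.si libraries. Its neg.si libraries alone ran over a 2.09-fold range, wider than the fitted fold of 1.12, and the log2 fold change was 0.16 (SE 0.27, 95% interval -0.44 to 0.76). ACLY, which makes acetyl-CoA from citrate, had a log2 fold change of 0.11 and ACACA, the carboxylase that commits acetyl-CoA to fatty acid synthesis, of 0.021.

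Among the desaturases and elongases, 1 of 5 members was fitted higher and 4 lower, with a median log2 fold change of -0.20, and 0 were called. SCD was the one fitted higher, at 497, 563 and 489 CPM in the neg.si libraries and 611, 651 and 652 CPM in the RIPK4.si libraries. Every RIPK4.si library was above every neg.si library, with means of 516 ± 40.6 CPM with neg.si and 638 ± 23.4 CPM with RIPK4.si (SD, n = 3 each) and a log2 fold change of 0.31 (SE 0.14, 95% interval -0.018 to 0.63), and the unadjusted p was 0.0614 and the adjusted p 0.497 by edgeR (0.243 to 0.943 over the alternatives). SCD (ENSG00000099194.6) lies at chr10:100347233-100364826 on the plus strand. FADS1, the delta-5 desaturase of long polyunsaturated fatty acids, was at 89.0, 90.1 and 93.7 CPM in the neg.si libraries and 77.7, 72.7 and 87.5 CPM in the RIPK4.si libraries. Each RIPK4.si library was below every neg.si library, the nearest pair being 89.0 CPM in neg.si 1 and 87.5 CPM in RIPK4.si 3, and the log2 fold change was -0.20 (SE 0.14, 95% interval -0.51 to 0.12, unadjusted p = 0.194 by edgeR). FADS1 (ENSG00000149485.19) lies at chr11:61799627-61829318 on the minus strand. FADS2, the delta-6 desaturase beside it on the other strand, had a log2 fold change of -0.47 (SE 0.23, 95% interval -0.99 to 0.048), and the exons of the pair overlap over 4.79% of the FADS1 bases and 4.64% of the FADS2 bases. The elongases ELOVL5, which works on polyunsaturated chains, and ELOVL6, which lengthens the palmitate made by FASN, had log2 fold changes of -0.18 (95% interval -0.54 to 0.19) and -0.41 (95% interval -0.87 to 0.039). SCD and ELOVL6, both SREBP1 targets that act on the products of FASN, thus had fitted values of opposite sign, a difference that was not tested.

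Of the members for sterol transport and export, NPC1 was fitted higher and the other two tested lower, with a median log2 fold change of -0.25. STARD4, a cytosolic carrier of sterol and an SREBP2 target, was the most uneven member, at 9.14, 13.1 and 32.4 CPM in the neg.si libraries and 17.3, 9.76 and 18.8 CPM in the RIPK4.si libraries. The neg.si libraries differed by 3.54-fold and held both the lowest and the highest value of the 6, and the log2 fold change was -0.25 (SE 0.43, 95% interval -1.23 to 0.73). ABCA1, the exporter that loads cholesterol on apolipoprotein and is induced by the oxysterol receptors LXR rather than by SREBPs, had a log2 fold change of -0.32 (SE 0.17, 95% interval -0.71 to 0.066), with libraries from 28.4 to 47.3 CPM.

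**Figure D3:**
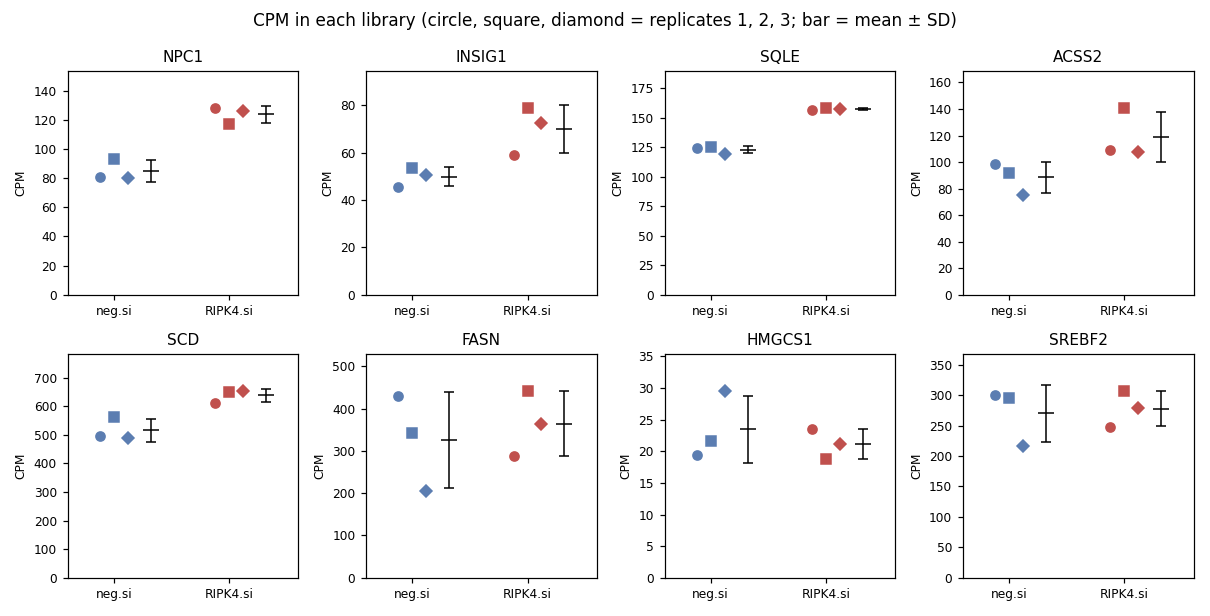
CPM of 8 members in each library, with neg.si in blue, RIPK4.si in red, a circle, square and diamond for replicates 1, 2 and 3, and a bar for the mean ± SD of 3 libraries. NPC1, INSIG1, SQLE, ACSS2 and SCD have every RIPK4.si library above every neg.si library, while FASN, HMGCS1 and SREBF2 overlap, with FASN running from 205.1 to 428.7 CPM within neg.si.

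The members shared the GC trend of the libraries, which over all genes tested had rank correlations of 0.562 in neg.si 1 and -0.554 in neg.si 3. Expressed as log2 CPM minus the gene's own mean over the 6 libraries, the deviation of neg.si 1 had a Pearson correlation with GC content of 0.856 (Spearman 0.871) over the 36 members and that of neg.si 3 one of -0.842 (Spearman -0.852), as a description over genes that share a library and are not independent. In neg.si 3, the 19 members with a GC content of 50% or more had a median deviation of -0.43, and the 17 with less had 0.19. In neg.si 1 the same medians were 0.25 and -0.19. FASN, with a GC content of 65.2% the most GC-rich member, followed this order, with 428.7, 341.9 and 205.1 CPM in neg.si 1, 2 and 3. Among the RIPK4.si libraries the correlation was -0.267 (Spearman -0.245), 0.528 (Spearman 0.482) and -0.212 (Spearman -0.131). Of the 36 members, 20 (55.6%) had their lowest value of all 6 libraries in neg.si 3, beside 29.0% of all genes tested. The ratio of the highest to the lowest library had a median over the members of 1.498 in neg.si and 1.25 in RIPK4.si, beside 1.503 and 1.33 over all genes tested, and was larger in neg.si for 27 of the 36.

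**Figure D4:**
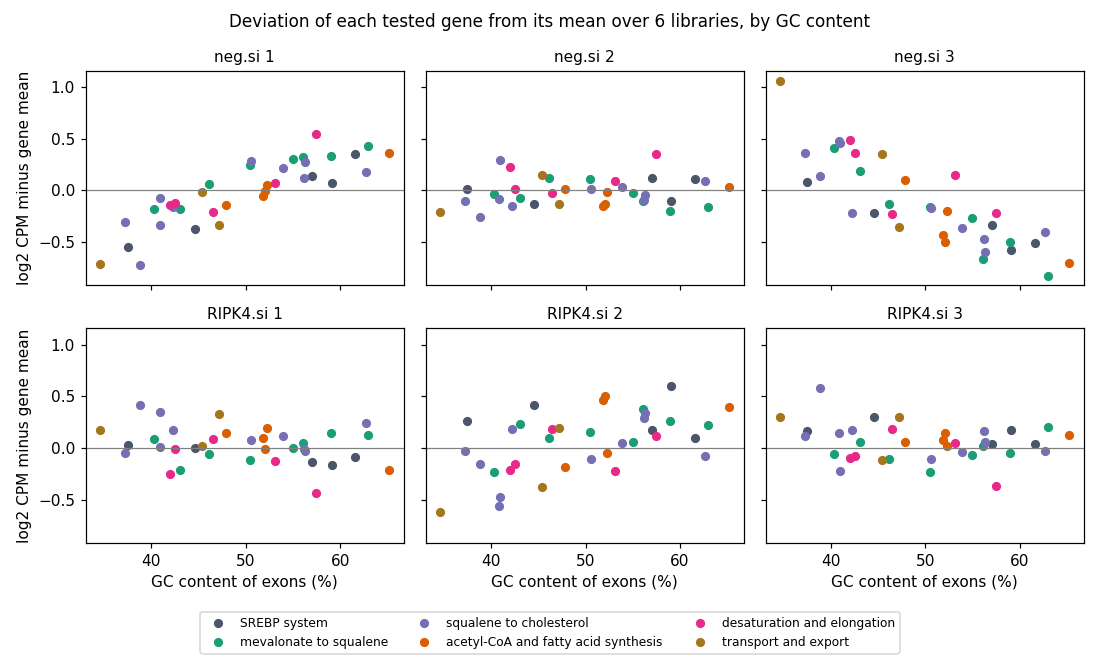
Deviation of each of the 36 tested genes from its own mean over the 6 libraries, in log2 CPM on the vertical axis, against the GC content of its exons in percent, with 1 panel for each library. In neg.si 1 the points climb with GC content (Pearson 0.856) and in neg.si 3 they descend (Pearson -0.842); the other libraries lie between.

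With each library's GC trend removed, the median log2 fold change of the members was 0.082. NPC1 was called (log2 fold change 0.58), and 14 members had an unadjusted p under 0.05. Of these, 10 were higher in RIPK4.si (SCAP, INSIG1, INSIG2, SQLE, LSS, MSMO1, ACSS2, AACS, SCD and NPC1), beside 8.01% of all genes, and 4 were lower (HSD17B7, ELOVL6, FADS2 and ABCA1), beside 8.12% of all genes. Apart from NPC1 their adjusted p ran from 0.113 for INSIG1 to 0.278 for INSIG2, so 13 of the 14 did not pass the test. INSIG1 had a log2 fold change of 0.53, MSMO1 of 0.62 and ACSS2 of 0.45 in this fit. The source of the GC trend was not tested. The members and the removal of the GC trend were chosen with earlier results of these data known, so these counts are a description.

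Genes around the same pathway that were not on the list were read from a wider set of 56 lipid genes, 52 of which were tested (SOAT2 and THRSP were not analysed here, and ELOVL7 and STARD5 had too few counts). Of these, 2 were called by edgeR and both rose, ERLIN1 and LRP8, and 0 fell, beside the 0.767% of all genes given above. The wider set was chosen with earlier results of these data known. Its counts beside the shares of all genes are therefore a description and no measure of an excess among lipid genes. The median log2 fold change of the 52 was -0.058. ERLIN1, an endoplasmic reticulum membrane protein that binds cholesterol and helps to hold the SREBP, SCAP and INSIG complex, was at 50.9, 59.2 and 61.1 CPM in the neg.si libraries and 136, 125 and 136 CPM in the RIPK4.si libraries. The lowest RIPK4.si library was far above the highest neg.si library, with a log2 fold change of 1.21 (SE 0.14, adjusted p = 0.0120 by edgeR, 2.74e-10 to 0.137 over the alternatives). LRP8, a lipoprotein receptor that also binds reelin, was at 36.3, 35.3 and 39.5 CPM in the neg.si libraries and 76.8, 59.3 and 68.3 CPM in the RIPK4.si libraries. The groups did not overlap, with a log2 fold change of 0.88 (SE 0.15, adjusted p = 0.0422 by edgeR, 0.000114 to 0.314 over the alternatives). ERLIN1 was no longer called by edgeR without neg.si 2 or without any 1 of the RIPK4.si libraries (adjusted p 0.0593 to 0.137), and LRP8 without any 1 library other than neg.si 3 (adjusted p 0.0684 to 0.314). VLDLR, a related lipoprotein receptor, went the other way in fitted value, at 81.8, 86.5 and 95.4 CPM in the neg.si libraries and 55.4, 49.1 and 53.2 CPM in the RIPK4.si libraries. It had a log2 fold change of -0.74 (SE 0.14) and an adjusted p of 0.0562 by edgeR, which missed the threshold, and of 0.00132 by DESeq2.

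In all, 11 of the 52 had an unadjusted p under 0.05 by edgeR, 4 higher and 7 lower, beside the 4.85% and 6.0% of all genes given above. These counts, and those of groups that do not overlap below, carry the limit that the set was chosen with earlier results known. The SREBP processing and sterol sensing group held ERLIN1, RNF145 (a ubiquitin ligase of sterol-dependent degradation) at a log2 fold change of 0.58 with an adjusted p of 0.221 by edgeR and UBE2G2 (the ubiquitin-conjugating enzyme that serves such ligases) at -0.60 with 0.146. UBE2G2 had an adjusted p of 0.0455 by DESeq2 and of 0.0305 by edgeR with the GC trend removed, and RNF145 of 0.0805 and 0.0545, and of 0.0387 with the GC trend removed and the replicate block. Among fatty acid enzymes, ME1 (malic enzyme, a source of NADPH for lipid synthesis) was at 72.8, 94.0 and 98.0 CPM in the neg.si libraries and 139.8, 170.4 and 149.9 CPM in the RIPK4.si libraries. This was a log2 fold change of 0.80 with an adjusted p of 0.0743 by edgeR, 0.00244 by DESeq2 and 0.0160 by edgeR with the GC trend removed. The elongase ELOVL2 (-0.49) and the dehydratase HACD1 (-0.55) of the same group were fitted lower on the log2 scale. Among sterol enzymes, FAXDC2, a hydroxylase-family relative of the sterol oxidases, had a log2 fold change of -0.78 with an adjusted p of 0.0629 by edgeR and 0.00244 by DESeq2, and SOAT1, which esterifies cholesterol for storage, had -0.41 with an adjusted p of 0.373 by edgeR. NR1H3, the oxysterol receptor LXR alpha that drives ABCA1, had a log2 fold change of -0.54 with an adjusted p of 0.255 by edgeR, 0.225 by DESeq2 and 0.0454 by edgeR with the GC trend removed. The groups did not overlap for 15 of the 52 genes, 5 higher and 10 lower, beside the 8.23% and 9.40% of all genes given above. DESeq2 called 6 of the 52 and edgeR with the GC trend removed 7, all of them among the 11, beside the 2.78% and 3.28% of all genes given above.

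**Figure D5:**
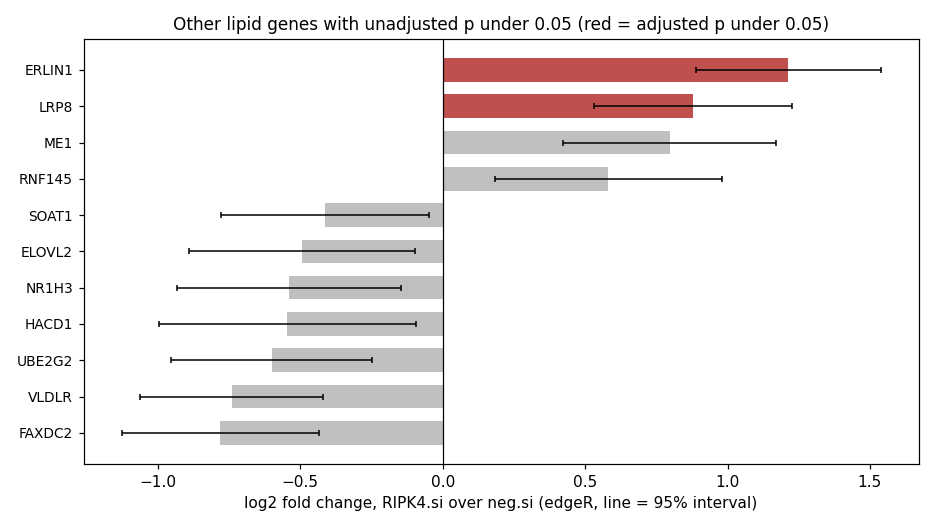
Fitted log2 fold change of RIPK4.si over neg.si for the 11 lipid genes outside the list with an unadjusted p under 0.05, with bars from 0 and lines for the 95% interval of edgeR's fit over 3 libraries a group. Red bars, ERLIN1 at 1.21 and LRP8 at 0.88, are those with an adjusted p under 0.05, and the grey bars are the other 9 genes.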

How the data were processed

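Poly(A) RNA of 3 neg.si and 3 RIPK4.si cultures was sequenced paired-end on the BGISEQ500 platform. According to the study's methods, the authors trimmed adapters with Cutadapt (quality 25), aligned to GRCh38.p13 by TopHat, and had HTSeq assign read pairs to genes, strand ignored. The authors deposited raw counts, which were used, and also normalized counts (a signal scaled by library), fold ratios, log2 folds with standard errors and p-values of their own comparison, which were not. Raw counts were fitted with edgeR 4.0.16 in R 4.3.3 (TMM scaling, filterByExpr, quasi-likelihood F test, Benjamini-Hochberg adjustment over 16297 genes, called under 0.05), after a run on simulated data. DESeq2 1.42.0 was an alternative. Exon length, GC content and overlaps came from GENCODE 44, in which 24416 of 24526 gene IDs were found. The GC trend was removed with lowess offsets of span 0.3. The log2 deviations used a pseudocount of 0.5 CPM. The members, the wider lipid list and the GC alternative were chosen with earlier results of these data known. All members are named by role, with values for each library for those with an unadjusted p under 0.05 or groups that do not overlap, and for INSIG1, HMGCS1, SQLE, FASN and SCD. Values for MSMO1, HSD17B7, STARD4, SREBF2 and some other genes were added after they were seen. Libraries held 28464057 to 31688095 counts, and libraries of a group differed by 18.4 to 134 times the chi-square that counting alone gives per degree of freedom, so the spread between 3 libraries limits the precision.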

Additional observations from a re-analysis of the deposited data

How the results depend on the processing

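The alternatives changed the normalization, the filter on low counts, the test, the GC trend, the replicate number as a block and the libraries used, 1 at a time except for 2 of them. The GC trend was also removed together with the replicate block, and DESeq2 changed the test, the size factors and the filter together, with an adjusted p for 15490 genes against 16297 by edgeR. The study calls the replicates independent experiments, and the sources used here do not say whether a number marks the same experiment in both groups. Deviations of same-numbered libraries had correlations of -0.242, 0.251 and 0.347, not every library correlated best with its own number, and the libraries were not treated as paired. With the replicate block 131 genes were called in all and 0 of the sterol and fatty acid synthesis genes. Over all genes, edgeR called 125 (61 higher, 64 lower), DESeq2 430 (216 and 214), edgeR with the GC trend removed 535 (267 and 268) and with the GC trend removed and the replicate block 426 (211 and 215). Leaving out 1 library gave 0 to 295 genes in all (0 to 122 higher, 0 to 173 lower), with 0 called without neg.si 2, RIPK4.si 1 or RIPK4.si 3, 4 without RIPK4.si 2, 70 without neg.si 1 and 295 without neg.si 3. Of the members, 1 (NPC1) was called by DESeq2, with the GC trend removed and with the GC trend removed and the replicate block, and 0 in every other alternative. Of the other lipid genes, 2 were called by edgeR, 6 by DESeq2, 7 with the GC trend removed, 6 with the GC trend removed and the replicate block, and 0 to 5 when 1 library was left out. The median log2 fold change of the members was 0.038 to 0.17 when 1 library was left out.

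For single members, 470 refitted log2 fold changes kept their sign and their side of the threshold, 3 (NPC1) passed it, and 31 changed sign. SREBF1 was 0.00027 with upper-quartile factors, 0.0015 with no filter, 0.033 with the replicate block and 0.0028 by DESeq2, and CYP51A1 was 0.011 with the GC trend removed. When 1 library was left out, the log2 fold change ran from -0.21 to 0.20 for SREBF1, -0.093 to 0.14 for SREBF2, -0.11 to 0.027 for ACAT2, -0.26 to 0.049 for HMGCS1, -0.047 to 0.17 for IDI1, -0.15 to 0.15 for FDPS, -0.22 to 0.24 for CYP51A1, -0.090 to 0.25 for TM7SF2, -0.20 to 0.050 for NSDHL, -0.085 to 0.24 for EBP, -0.12 to 0.22 for SC5D, -0.041 to 0.12 for ACACA, -0.078 to 0.43 for FASN and -0.55 to 0.46 for STARD4. A further 15 members kept their sign but moved by over 1.5 times when 1 library was left out, from 0.20 to 0.59 for SCAP, 0.13 to 0.41 for INSIG2, 0.038 to 0.55 for MVK, 0.038 to 0.50 for PMVK, 0.021 to 0.70 for MVD, -0.24 to -0.015 for FDFT1, 0.14 to 0.44 for LSS, 0.0084 to 0.45 for DHCR7, 0.044 to 0.18 for ACLY, 0.28 to 0.56 for AACS, -0.26 to -0.022 for ELOVL5, -0.55 to -0.24 for ELOVL6, -0.27 to -0.13 for FADS1, -0.66 to -0.28 for FADS2 and -0.40 to -0.21 for ABCA1, and the other 7 moved by less. The cause of these changes was not tested.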
